A study of Mus musculus with 2 samples.

Results

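The G1 cyclins and their kinases were described here as 9 genes: the D-type cyclins Ccnd1, Ccnd2 and Ccnd3, their kinases Cdk4 and Cdk6, the E-type cyclins Ccne1 and Ccne2, their kinase Cdk2, and the phosphatase Cdc25a. They were chosen by name and not by a rule on their measured values, though with earlier results of these data known. All 9 were found by Ensembl identifier among the 43346 Ensembl genes of each gene table. Total RNA had been sequenced from G1E-ER4, an immortalized mouse erythroid line that the labels give as male and of strain C57BL/6J. The line descends from cells without a working Gata1 gene, and an estradiol-dependent GATA1 restores the function. All cells had received 10 nM 17β-estradiol for 24 h, and the labels number 2 biological replicates of this single group. No untreated cells and no second line were analysed here, so the values describe levels in treated cells of this line and the spread between 2 libraries. No p-value is given, since there is no contrast, and an exact two-sided sign-flip test on 2 libraries could not go below 0.5.

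Progress through G1 depends on cyclins, which are made and destroyed as the cycle turns, and on the kinases that they activate. D-type cyclins answer to growth signals and pair with CDK4 or CDK6, which begin to phosphorylate the retinoblastoma protein and so free E2F transcription factors. E-type cyclins are E2F targets; they activate CDK2, which drives entry into S phase once CDC25A has removed the inhibitory phosphates from it. In red cell precursors these genes are known for timing the last divisions: mice without cyclin D3 make fewer and larger red cells, and GATA1 is known to repress growth genes as precursors mature. mRNA levels are only part of this control, because cyclins and CDC25A are turned over rapidly as proteins.

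The libraries held 50277914 and 47478888 expected counts, and nuclear protein-coding genes took 14373925 and 13901316 of these. The 9 genes took 36622 and 34801. A chi-square over 8285 protein-coding genes came to 7.83 times the value for sampling noise, so they are not copies of a single library. That they come from separate cultures rests on the labels' biological replicate numbers. All 8 erythroid markers, among them Hbb-bs, Klf1 and Gata1, reached the detection threshold. Gata1 is no independent marker here, since its reads were not told apart from those of the estradiol-dependent GATA1. The threshold was a TPM (a level per length, scaled to the same total in each library) of 1 in both libraries. Among 21461 nuclear protein-coding genes 40.2% reached it. Of 23 markers of other blood, stromal and endothelial cells 4 reached it, namely Cpa3, Pf4, Itga2b and Gp1ba, and 10 had no read, including Csf1r, Mcpt8, Fcer1a, Cd3e and Col1a1. The summed TPM of the 23 was 59.7 in replicate 1 and 55.5 in replicate 2, against 1246 and 1283 for the erythroid markers. Most of the erythroid sum was Hbb-bs alone, at 994 and 1008 TPM, so the gap does not measure the part of other cells. Any such part in the values below was not tested. Within the sum of the 23 the groups moved apart: granulocyte and macrophage markers summed to 1.16 and 4.28 TPM, megakaryocyte markers to 30.66 and 21.95 TPM (Pf4 18.96 and 10.54) and mast cell markers to 27.6 and 29.1 TPM. Of the markers that averaged at least 1 TPM, 2 were 2-fold or more apart, Cd68 at 0.90 and 2.08 TPM and Gp9 at 1.53 and 0.65 TPM. Over all 8808 nuclear protein-coding genes with such an average the share was 1.95%. Markers below that average were left out of this count, among them Mpo (1 and 70 expected counts) and Elane (0 and 17). In bulk RNA, fewer cells of a type and less RNA per cell cannot be told apart, nor can cells in different phases of the cycle.

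Of the 9 genes 8 were detected, and 40.2% of 21461 nuclear protein-coding genes were. Cdk4 had the highest level, at 166 ± 15.5 TPM (mean ± SD, n = 2, as for every such value that follows), ahead of Ccnd2 at 92.8 ± 0.382 TPM and Ccnd3 at 72.8 ± 3.17 TPM. Cdk6 (34.2 ± 0.106 TPM) and Cdk2 (22.9 ± 2.36 TPM) were intermediate, and Ccne2 (14.8 ± 1.27 TPM), Ccne1 (10.1 ± 1.87 TPM) and Cdc25a (7.99 ± 0.0919 TPM) were low. Ccnd1 was at the limit of detection. Down this order the values of neighbouring genes did not overlap between libraries at any step. The deposited intervals of the TPM estimates overlapped at the step from Ccne1 to Cdc25a in replicate 1 (8.16 to 10.3 and 7.36 to 8.38) but not in replicate 2 (9.76 to 13.3 and 7.21 to 8.24). Those of Ccne2 and Ccne1 did not overlap within either library, though the Ccne2 interval of replicate 1 (13.2 to 16.2) met the Ccne1 interval of replicate 2.

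**Figure D1:**
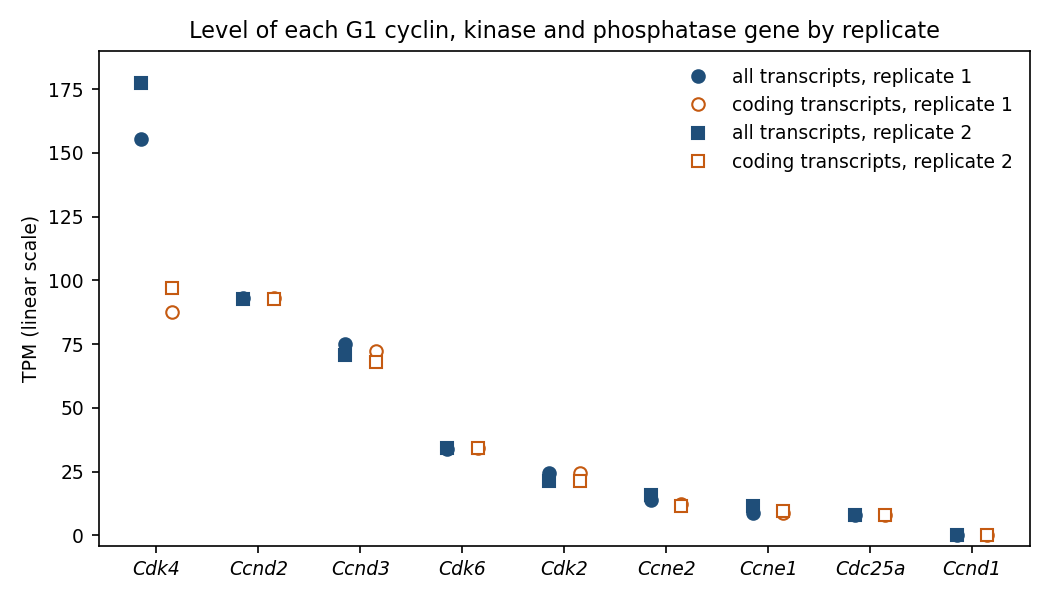
TPM of the 9 genes on a linear axis in estradiol-treated G1E-ER4 cells; circles are replicate 1 and squares replicate 2, filled for all transcripts of a gene and open for its coding transcripts. Cdk4 lies highest at 155 and 177 TPM over all transcripts but at 87.5 and 97.1 TPM, level with Ccnd2, over coding ones, and Ccnd1 lies at 0 and 0.01 TPM.

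Among the D-type cyclins, Ccnd2 had 93.1 and 92.6 TPM in replicates 1 and 2, from 17141 and 16186 expected counts. It ranked above 95.9% of the detected protein-coding genes and its coefficient of variation between libraries, 0.411%, was the lowest of the detected members after Cdk6. The gene lies on the minus strand of chromosome 6 (127125162 to 127152193, mm10), and its single listed transcript, of 5701 nt, took every count. Its TPM lay just above the deposited intervals, 89.6 to 92.4 in replicate 1 and 88.8 to 91.5 in replicate 2, because these surround the posterior mean estimate and not the TPM itself.

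Ccnd3, the D-type cyclin whose loss affects red cell size and number in mice, had 75.1 and 70.6 TPM, from 4656 and 4041 expected counts. Replicate 1 was the higher, and the deposited intervals (72.7 to 77.6 and 67.7 to 73.5) overlapped. The gene lies on the plus strand of chromosome 17 (47505051 to 47599691). The ratio of Ccnd2 to Ccnd3 was 1.24 in replicate 1 and 1.31 in replicate 2 (1.28 ± 0.0504), so Ccnd2 was the higher in both libraries. Ccnd2 made up 56.1% ± 0.971 of the summed D-type cyclin TPM and Ccnd3 43.9% ± 0.975. A near-identical processed copy, Ccnd3-ps on chromosome 4 (139345300 to 139346180), matches Ccnd3 at 96.3% identity over 881 bases and held 3.06 and 3 expected counts.

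Ccnd1, the D-type cyclin most often studied in epithelial cells, had no read in replicate 1 and 1 read in replicate 2. These were 0 of 21797 expected counts on D-type cyclins in replicate 1, which allows a share of up to 0.0138% by the floor of 3 counts and 0.0169% by the exact Clopper-Pearson 95% interval, and 1 of 20228 in replicate 2, a share of 0.00494% (same interval, 0.000125 to 0.0275%). The floor corresponds to 0.0251 and 0.0265 TPM for its 3740-nt transcript, so this transcript was not seen above that level at this depth. For the gene, with a further listed transcript of 470 nt, the deposited intervals reached higher, to 0.265 and 0.287 TPM. The exact intervals and the floors cover counting error only, since the reads carried no molecular identifiers. The gene lies on chromosome 7 (144929931 to 144939925), where LTO1 overlaps it on the opposite strand over 1771 bases and had 2.23 and 2.85 TPM.

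Ccnd3 is annotated with 21 transcripts in 2 groups of start sites, the first of them 88385 bases apart. The 8 transcripts that begin in the internal region, from 47593436 to 47597164 on chromosome 17, carried 97.6% of the gene's TPM in replicate 1 and 91.4% in replicate 2. The 13 that begin upstream, from 47505051 to 47505241, carried 2.44% and 8.62%, from 83 and 300 expected counts. The internal transcript Ccnd3-205 alone took 95.4% and 86.2% (90.8% ± 6.54), and the upstream Ccnd3-201 took 0 and 5.69%. Both encode the same 876-nt coding sequence, which 5 transcripts share and which held 95.4% and 91.9% of the TPM. The split of reads among transcripts is an estimate wherever they share exons. RefSeq (GRCm38.p6) lists a promoter for each group, and both are shown because nearly all of the signal belonged to the internal group; capitals mark the 50 bases from the annotated start on, at chr17:47504801-47505100 for the upstream and chr17:47593217-47593516 for the internal start, plus strand.
Ccnd3 upstream start: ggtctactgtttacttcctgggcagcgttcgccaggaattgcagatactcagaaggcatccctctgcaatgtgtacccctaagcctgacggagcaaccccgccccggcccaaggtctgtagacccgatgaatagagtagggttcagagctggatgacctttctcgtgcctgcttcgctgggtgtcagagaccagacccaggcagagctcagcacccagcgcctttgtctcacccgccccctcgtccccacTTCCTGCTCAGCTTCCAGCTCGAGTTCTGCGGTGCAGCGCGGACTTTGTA
Ccnd3 internal start: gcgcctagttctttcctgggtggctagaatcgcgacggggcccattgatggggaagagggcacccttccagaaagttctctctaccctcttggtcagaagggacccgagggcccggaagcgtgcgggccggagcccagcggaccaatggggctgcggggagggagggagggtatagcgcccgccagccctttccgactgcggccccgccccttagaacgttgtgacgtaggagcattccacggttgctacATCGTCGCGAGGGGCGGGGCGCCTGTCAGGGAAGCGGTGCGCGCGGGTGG

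Cdk4, the main partner kinase of D-type cyclins in most tissues, had 155 and 177 TPM, from 6699 and 7142 expected counts, and ranked above 98.0% of detected protein-coding genes. It lies on the plus strand of chromosome 10 (127063534 to 127067920). Replicate 2 was the higher, and the deposited intervals of the libraries, 144.5 to 160.5 and 165.1 to 182.2, did not overlap. Cdk6, the alternative partner of D-type cyclins and prominent in blood cells, had 34.1 and 34.2 TPM, from 3685 and 3550 counts, and lies on the plus strand of chromosome 5 (3341485 to 3531008). The ratio of Cdk6 to Cdk4 was 0.219 and 0.193 (0.206 ± 0.0186). Cdk2, the partner of E-type cyclins, had 24.6 and 21.3 TPM, from 1789 and 1481 counts on the minus strand of chromosome 10 (128697939 to 128705031). Its ratio to Cdk4 was 0.158 and 0.120 (0.139 ± 0.0271). Cdk4 thus held 74.4% ± 2.53 of the summed TPM of the 3 kinases, Cdk6 15.3% ± 0.859 and Cdk2 10.3% ± 1.67.

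Much of the Cdk4 level was assigned to transcripts that are not annotated as coding. The libraries were of total RNA, and whether these reads came from finished transcripts was not tested. The 4 coding transcripts held 87.5 and 97.1 TPM (92.3 ± 6.77), which is 56.3% and 54.8% of the gene. The 4 transcripts annotated as retaining an intron held 60.4 and 78.9 TPM, which is 38.9% and 44.5%, although they took only 20.6% and 24.9% of its expected counts, being mostly short. A transcript annotated for nonsense-mediated decay, Cdk4-208, took 4.81% and 0.733%. On coding transcripts alone, a comparison added after the data were seen, Cdk4 no longer stood apart from Ccnd2, whose 93.1 and 92.6 TPM lay within the range of Cdk4's. The ratio of Cdk6 to Cdk4 was then 0.371 ± 0.0261. Of the summed coding TPM of the 3 kinases Cdk4 then held 61.7% ± 2.67, Cdk6 22.9% ± 0.622 and Cdk2 15.4% ± 2.05.

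**Figure D2:**
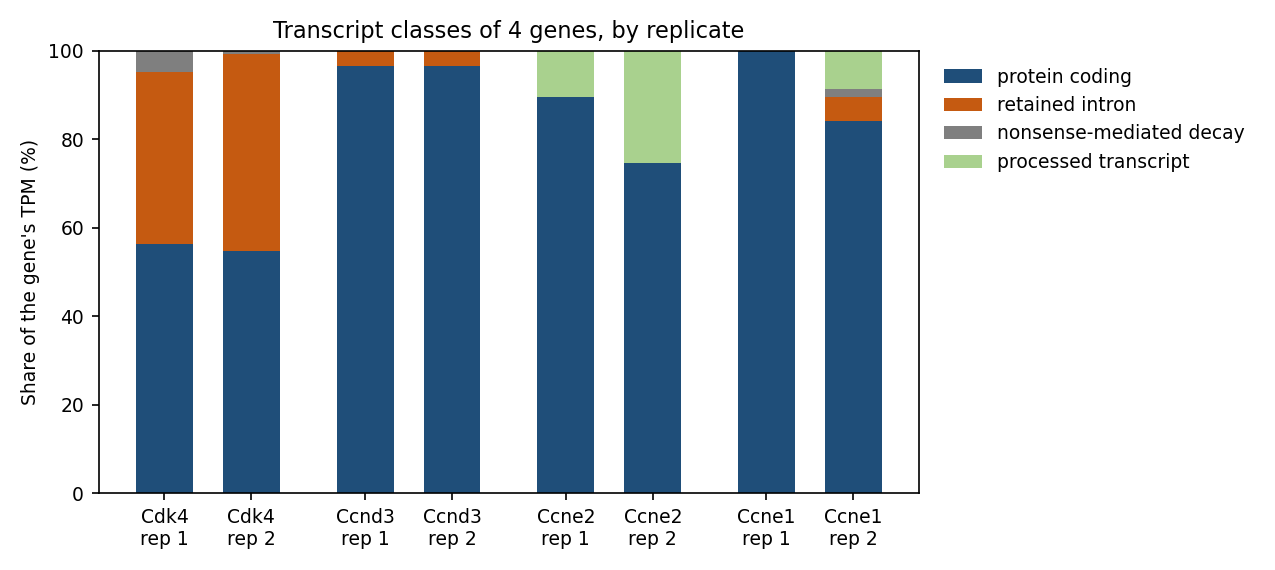
Share of each gene's TPM on annotated transcript classes, one bar per library, for the 4 genes with reads on non-coding transcripts. Coding transcripts fill 56.3% and 54.8% of Cdk4 but 96.5% of Ccnd3 in both libraries, and for Ccne1 and Ccne2 the share is lower in replicate 2.

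The leading Cdk4 transcript, Cdk4-201 of 2053 nt with a 909-nt coding sequence, took 48.1% and 45.0% of the TPM. The intron-retaining Cdk4-209 (468 nt, 127066076 to 127067235 on chromosome 10) took 20.8% and 17.4%, and Cdk4-206 (574 nt, 127063616 to 127065280) took 10.1% and 15.3%. Tspan31, on the opposite strand, overlaps the last 641 bases of Cdk4 and had 24.5 and 25.0 TPM. The overlap, 127067280 to 127067920, lies past the ends of Cdk4-209 and Cdk4-206. It falls within Cdk4-201 and touches the end of Cdk4-207, another intron-retaining transcript. The strand setting of the authors' counting is not given in the sources used here, so a share of reads from that overlap could not be assigned with certainty.

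The Cdk4 promoter (chr10:127063285-127063584, plus strand, GRCm38.p6) is shown because it differs from those of the other kinases in a simple feature: it holds 4 copies of CACGTG, the E-box core read by MYC and related factors. They begin 172, 118, 98 and 11 bases before the start and are in capitals.
Cdk4: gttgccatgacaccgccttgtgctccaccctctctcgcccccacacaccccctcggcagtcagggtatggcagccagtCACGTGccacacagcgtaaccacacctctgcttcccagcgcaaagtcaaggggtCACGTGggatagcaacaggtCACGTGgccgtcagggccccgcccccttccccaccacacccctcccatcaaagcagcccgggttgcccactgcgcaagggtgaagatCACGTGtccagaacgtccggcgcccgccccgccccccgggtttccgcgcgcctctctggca
Of 32851 RefSeq mouse promoter windows of the same length, 7.15% hold CACGTG and 0.0883% hold 3 or more copies. The Cdk6 window holds a single copy, and the Cdk2 window none. CACGTG reads the same on both strands. A match describes letters only and gives no evidence of binding. GATAA, one form of the site that GATA factors read, was searched on both strands. It occurred in none of the 7 windows found for 6 of the genes, against 25.4% of all windows. At that share none in 7 windows is unremarkable. The shorter GATA, which the Cdk4 window printed above holds, was not searched.

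Cdk6 reads were divided between Cdk6-202, with 73.3% and 76.0% of the TPM, and Cdk6-201, with 26.7% and 24.0%. Both encode the same 978-nt coding sequence, so the division does not bear on the protein. Cdk6-202 is 3735 nt long in the deposited tables and 11525 nt in the later GENCODE release used for names. A Cdk6 copy, Gm16505 on chromosome 13, matches at 95.5% over 289 bases and had no count.

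Cdk2 transcripts divided between forms whose coding sequences differ by a whole exon. Cdk2-201, with an 894-nt coding sequence, took 75.1% of the TPM in replicate 1 and 60.1% in replicate 2 (67.6% ± 10.6), from 1321 and 867 expected counts. Cdk2-202, with a 1038-nt coding sequence, took 24.9% and 39.9% (32.4% ± 10.6), from 468 and 614 counts. In both libraries the shorter form was the more abundant. The deposited TPM intervals of each form did not overlap between libraries for Cdk2-201 (16.4 to 19.7 and 10.9 to 13.9), and they overlapped for Cdk2-202 (4.68 to 7.36 and 7.04 to 9.72). The forms differ by an exon of 144 bases inside the coding sequence (chr10:128699976-128700119, minus strand, mm10). It is printed in capitals between 30 bases of each neighbouring exon, above the junction without it.
Cdk2-202: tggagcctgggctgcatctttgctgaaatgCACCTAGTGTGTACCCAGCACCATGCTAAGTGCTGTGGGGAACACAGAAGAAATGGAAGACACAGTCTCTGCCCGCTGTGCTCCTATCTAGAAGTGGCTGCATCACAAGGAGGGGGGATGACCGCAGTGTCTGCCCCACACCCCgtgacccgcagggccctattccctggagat
Cdk2-201: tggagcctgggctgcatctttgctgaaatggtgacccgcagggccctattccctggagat

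**Figure D3:**
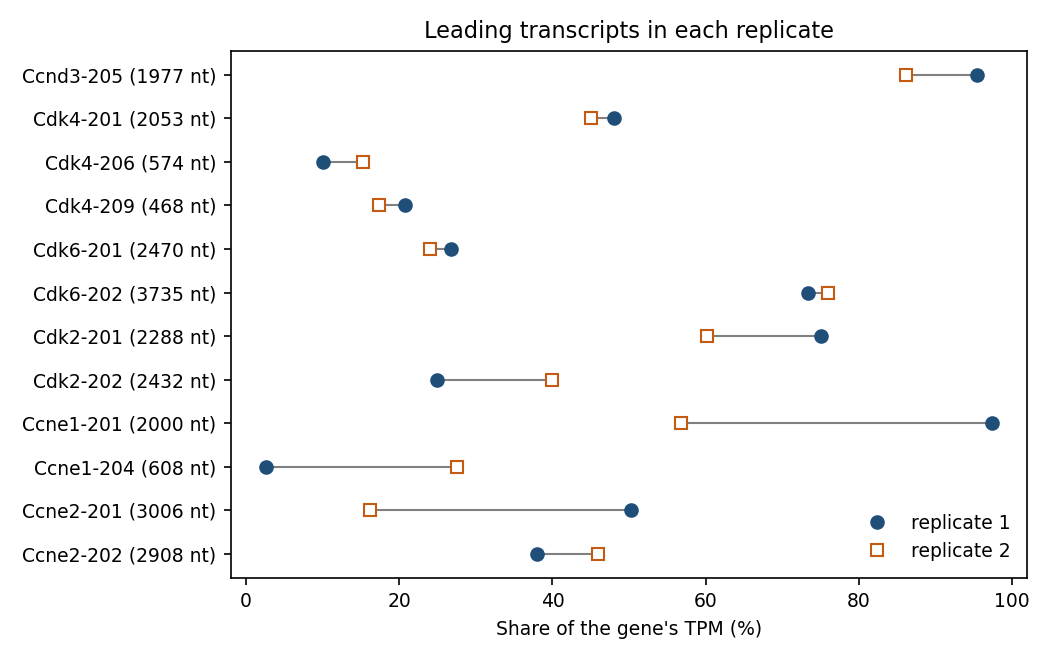
Share of its gene's TPM, in percent, taken by each named transcript of 6 genes; filled circles are replicate 1, open squares replicate 2, and a line joins them. Ccnd3-205 and Cdk6-202 lead their genes in both, while Ccne1-201 (97.4% and 56.7%) and Ccne2-201 (50.3% and 16.2%) differ most between replicates.

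Both E-type cyclins were lower than Ccnd2 and Ccnd3 and higher than Ccnd1. Ccne2 had 14.0 and 15.7 TPM, from 1188 and 1079 expected counts, and Ccne1 had 8.76 and 11.4 TPM, from 533 and 452 counts. Ccne2 lies on the plus strand of chromosome 4 (11191351 to 11204779) and Ccne1 on the minus strand of chromosome 7 (38097984 to 38107534). Ccne2 was the higher in both libraries, with a ratio of 1.59 and 1.38 (1.49 ± 0.151). Summed D-type cyclins stood 7.41 and 6.01 times above summed E-type cyclins (6.71 ± 0.987). Ints8 overlaps Ccne2 on the opposite strand over 5622 bases, introns included, and had 21.2 and 22.0 TPM. The longest match between their transcripts was 474 bases. With the strand setting of the counting not known, reads from that stretch could not be assigned with certainty here either.

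For both E-type cyclins the direction between replicates depended on the measure. By TPM replicate 2 was higher, with log2 ratios of replicate 2 over replicate 1 of 0.38 for Ccne1 and 0.17 for Ccne2 after adding 0.1. By expected counts scaled with TMM factors it was lower, at -0.19 and -0.09. On coding transcripts alone the ratio was 0.13 for Ccne1 and -0.09 for Ccne2. The length that the deposited tables use for each gene, a mean over transcripts weighted by abundance, moved with this: for Ccne1 it was 1964 nt in replicate 1 and 1387 nt in replicate 2. The reads of replicate 2 had been given in larger part to short transcripts, such as Ccne1-204 of 608 nt, which took 2.59% of the TPM in replicate 1 and 27.5% in replicate 2 on 3.66 and 47.7 expected counts. Ccne1-201, with the full 1224-nt coding sequence, took 97.4% and 56.7% of TPM, which was 99.3% and 84.3% of counts.

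Ccne2 had no stable leading transcript. Ccne2-201 took 50.3% of the TPM in replicate 1 and 16.2% in replicate 2, from 668 and 230 expected counts, and Ccne2-202 took 38.0% and 45.9%, from 487 and 631 counts. The deposited TPM intervals did not overlap between libraries for Ccne2-201 (4.68 to 8.04 and 1.27 to 4.44), and they overlapped for Ccne2-202 (2.86 to 6.96 and 4.33 to 9.07). The coding sequences differ by 3 bases at an exon junction (1209 nt for Ccne2-201, 1212 nt for Ccne2-202 and Ccne2-207), so reads from most of the coding sequence fit both. The junction is shown because it is the whole coding difference, with the extra bases (chr4:11192815-11192817, plus strand, mm10) in capitals.
Ccne2-202: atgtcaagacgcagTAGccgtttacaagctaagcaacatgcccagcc
Ccne2-201: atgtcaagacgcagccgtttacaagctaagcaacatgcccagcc

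Cdc25a, the phosphatase that activates CDK2, had 8.05 and 7.92 TPM, from 931 and 869 expected counts on a single 3625-nt transcript, from the plus strand of chromosome 9 (109875579 to 109893895). Its libraries nearly coincided, with a log2 ratio of -0.02. It stood above Cdc25b, a related phosphatase that acts mainly later in the cycle, by 2.02 and 1.78 times (1.90 ± 0.171). Cdc25b had 3.99 and 4.46 TPM and Cdc25c 5.14 and 5.47 TPM, so Cdc25a was the highest of the family in both libraries. Its promoter (chr9:109875329-109875628, plus strand, GRCm38.p6) is shown because it was the only window among the 7 to hold TTTNGCGC, a form of the E2F consensus, searched on both strands and present in 1.38% of all windows. The match, in capitals, begins 67 bases before the start.
Cdc25a: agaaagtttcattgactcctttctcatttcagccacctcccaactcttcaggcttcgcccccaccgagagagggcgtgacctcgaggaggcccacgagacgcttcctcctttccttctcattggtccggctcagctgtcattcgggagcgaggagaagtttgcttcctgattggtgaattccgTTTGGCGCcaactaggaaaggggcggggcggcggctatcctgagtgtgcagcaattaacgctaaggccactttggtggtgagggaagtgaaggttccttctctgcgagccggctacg

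None of the 8 detected genes was 2-fold or more apart between libraries. Ccnd1, at 0 and 0.01 TPM, could not have been after 0.1 was added, and is left out of this count. Of the 8808 protein-coding genes that averaged at least 1 TPM 1.95% were, a share at which none in so few genes is unremarkable. The log2 ratios of the detected members ran from -0.21 for Cdk2 to 0.38 for Ccne1, beside a median of 0.03 and an SD of 0.37 over those genes. Cdk2 was lower in replicate 2 by TPM and by TMM-scaled counts (-0.23), and Cdk4 was higher by both (0.19 and 0.14). Ccnd2 (-0.01 by TPM and -0.04 by TMM-scaled counts), Cdk6 (0.01 and -0.01) and Cdc25a (-0.02 and -0.05) were closest to 0. The Ccne1 ratio by TPM was larger in size than that of 81.4% of the genes.

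**Figure D4:**
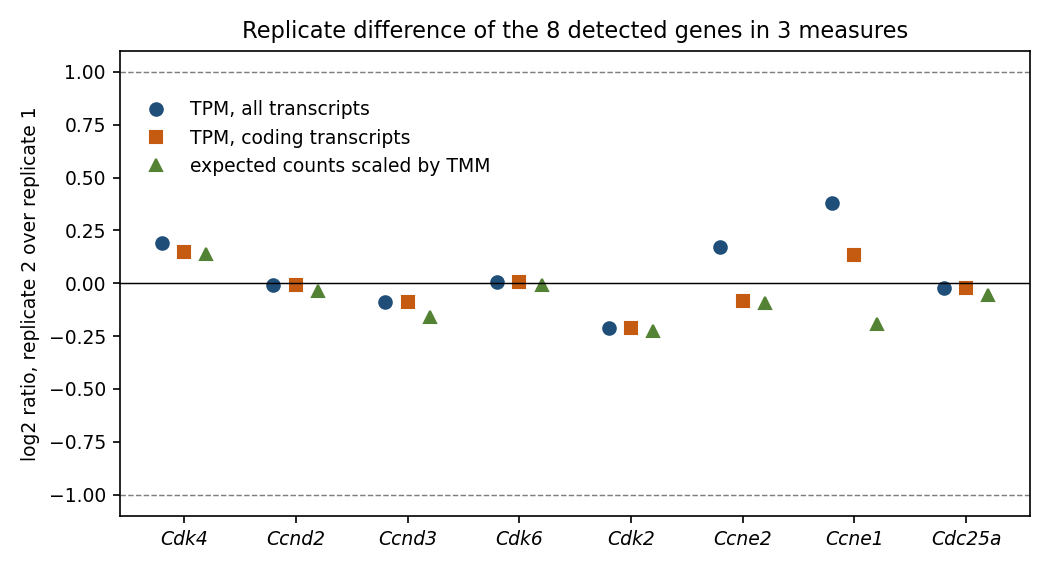
Log2 ratio of replicate 2 over replicate 1 for the 8 detected genes, by TPM (circles), by TPM of coding transcripts (squares) and by TMM-scaled expected counts (triangles); dashed lines mark a 2-fold difference. Ccne1 is at 0.38, 0.13 and -0.19, whereas Cdk2 and Cdk4 keep their sides of 0.

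Of 35 other genes of the pathway 31 were detected, beside 40.2% of all nuclear protein-coding genes. None of those that averaged at least 1 TPM was 2-fold apart between libraries. Over all protein-coding genes with such an average 1.95% were, a share at which none in so few genes is unremarkable. The INK4 inhibitors, which bind CDK4 and CDK6, were low or not seen: Cdkn2c had 4.82 and 5.90 TPM, Cdkn2d had 2.84 and 2.64 TPM, and Cdkn2a and Cdkn2b had no read. Among the CIP/KIP inhibitors, which bind cyclin-kinase complexes, Cdkn1a (p21) had 36.7 and 40.1 TPM, Cdkn1b (p27) had 13.3 and 13.4 TPM, and Cdkn1c had no read. Cdkn1a was therefore the highest of the 7 inhibitor genes, and both libraries gave a value above that of Cdk6. Deposited intervals of Cdkn1a and Cdk6 overlapped in replicate 1 (34.2 to 38.3 and 32.1 to 34.6) but not in replicate 2 (37.1 to 41.5 and 32.1 to 34.7).

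Downstream of the kinases, Rb1 led the retinoblastoma family with 60.3 and 60.4 TPM, ahead of Rbl1 (21.2 and 22.1 TPM) and Rbl2 (17.95 and 16.76 TPM). The activating E2F genes, whose targets include the E-type cyclins, were close to each other at 7.37 and 6.95 TPM for E2f1, 8.86 and 6.67 TPM for E2f2, and 7 and 7.5 TPM for E2f3. Later in the cycle, cyclin A2 (Ccna2) had 87.9 and 87.5 TPM and Ccnb1 had 61.7 and 69.9 TPM, both above each E-type cyclin, while Ccna1, a cyclin known mainly from testis, had no read.

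Of the genes that modify these kinases, Ccnh, the cyclin of the CDK-activating kinase, had 41.1 and 35.3 TPM, its kinase Cdk7 had 5.89 and 6.05 TPM, and its assembly factor Mnat1 had 6.31 and 6.10 TPM. Wee1, which adds the phosphates that CDC25A removes, had 11.98 and 12.69 TPM, and the related Pkmyt1 had 4.8 and 6.28 TPM. Chek1, the checkpoint kinase that marks CDC25A for destruction, had 14.6 and 19.9 TPM, and Chek2 had 14.5 and 13.1 TPM. All 8 ubiquitin ligase genes that act on G1 cyclins, CDC25A or the inhibitors were detected, beside 40.2% of nuclear protein-coding genes. Cul1 (52.3 and 56.0 TPM) and Cks1b (26.4 and 25.9 TPM) were highest, and Fbxo4 (2.68 and 2.13 TPM) was lowest.

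**Figure D5:**
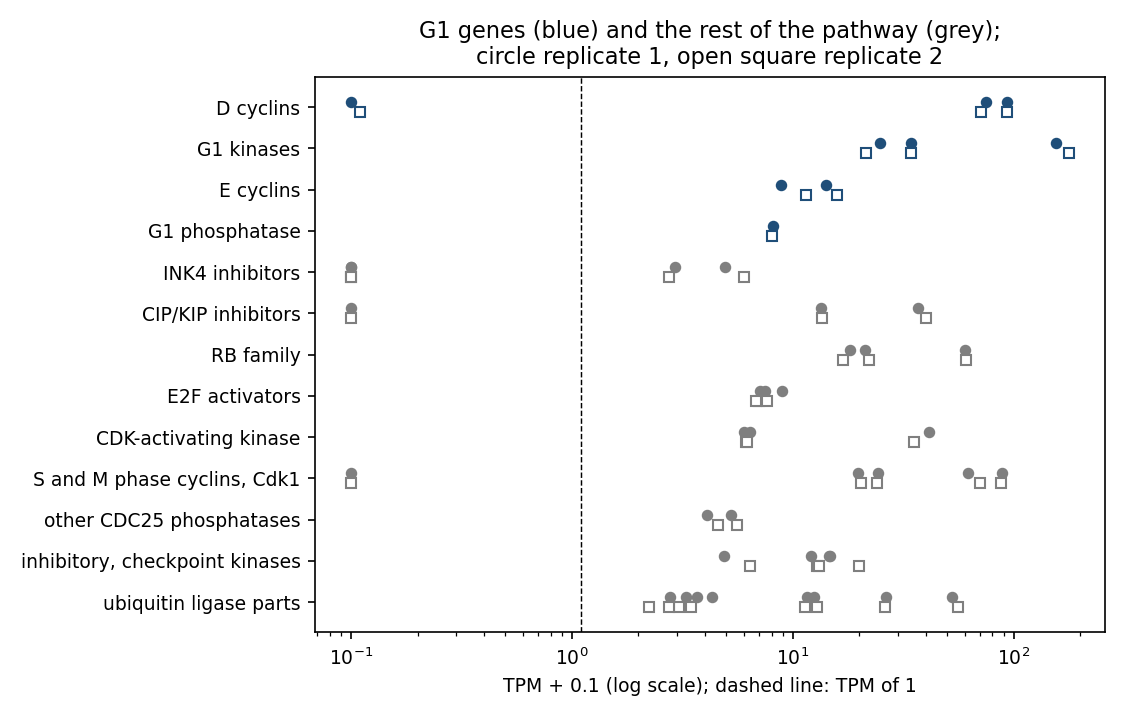
TPM + 0.1 on a log axis for the 9 genes (blue, upper rows) and 35 other pathway genes (grey) by list; circles are replicate 1, open squares replicate 2, and the dashed line is a TPM of 1. Among the grey genes Ccna2 is highest at 87.9 and 87.5 TPM, and the 4 with no read, Cdkn2a, Cdkn2b, Cdkn1c and Ccna1, sit at the left edge.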

How the data were processed

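For each of the 2 total RNA libraries, 1 table of genes and 1 of transcripts were deposited. The labels give 1 ng of starting RNA, a size range above 200 with no unit, and added spike-ins. Per the deposited documentation the assembly was mm10 and the annotation GENCODE M4; the column names are those RSEM writes, but no source used here names quantifier, aligner or versions. The deposited expected counts are the authors' estimated reads per feature, not normalized, with reads shared among overlapping transcripts. The deposited TPM values, used for levels, sum to the same total in each library, by the authors' scaling, and nuclear protein-coding genes held 22.7% and 22.9% of it. The deposited FPKM values served as an alternative. The share of each transcript in its gene's TPM was deposited in percent. The deposited bounds of the TPM interval and posterior SD of counts, treated as a signal on their own scale, have no stated level.

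Genes and transcripts were matched by identifier to GENCODE M21; all 9 genes and all 75 listed genes of the wider lists matched, and 23 member transcripts of M21 were not in the tables. Detected means at least 1 TPM in each library. Log2 ratios were taken after adding 0.1 to each TPM, and so are too small for low genes. TMM factors came from edgeR 4.0.16 and size factors from DESeq2 1.42.0 in R 4.3.3, on expected counts rounded to whole numbers; no test was run with either. Near-identical copies were searched with BLAST+ 2.17.0 at 95% identity or more over 200 bases. TMM scaling and the replicate ratios of scaled counts were tried on simulated gene counts. Ratios of TPM, ratios between genes and transcript shares were not simulated. Promoters came from RefSeq. Python 3.11.15 was used for the rest. Named were all members, the 2 highest and the lowest of each other list (all of a list of 4 or fewer), the lower gene of each pair, and transcripts that led their gene or took 10% or more of it on average; any further names were picked with their values in view. Some marker genes are not reported here by name. The alternatives varied thresholds, pseudocount, unit, scaling and coding status, and left out each replicate. The members and lists were chosen with earlier results of these data known.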

Additional observations from a re-analysis of the deposited data

How the results depend on the processing

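Counts not divided by length carry the differences in transcript length, and 6 of 7 ratios moved by more than the spread between libraries: Ccnd2 over Ccnd3 became 3.84, Cdk6 over Cdk4 0.524, Cdk2 over Cdk4 0.237, Ccne2 over Ccne1 2.31, Cdc25a over Cdc25b 2.65 and D-type over E-type cyclins 12.9. The other, Ccnd1 over Ccnd3, rests on 1 read. With coding transcripts only, an alternative chosen after seeing the data, Cdk6 over Cdk4 was 0.371, Cdk2 over Cdk4 0.250 and Ccne2 over Ccne1 1.32. Posterior mean TPM gave 0.00138 for Ccnd1 over Ccnd3, where TPM gave 7.09e-05; both rest on at most 1 read. With a pseudocount of 0.01 in place of 0.1, 1 member, Ccnd1, was 2-fold apart between libraries. Which gene of a pair was higher did not change in any of these, and 8 members were detected at each threshold tried. Leaving out a replicate leaves the value of the other library, and with 2 libraries it can never move a mean by more than their SD, so it is no test of stability; the share of Ccne1-204, 15.04% on average, became 27.5% without replicate 1 and 2.59% without replicate 2, and that of Ccne2-201, 33.2% on average, became 16.2% and 50.3%. No paired analysis was possible because there is only 1 group. Depth limits the transcript shares of Ccne1 and Ccne2, which rest on 452 to 1188 counts per gene, and with 2 libraries an SD is itself uncertain.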

Other observations

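Set among all cyclin and cyclin-dependent kinase genes, a comparison chosen after the values were seen, Ccnd2 and Ccnd3 were 2nd and 5th of 25 cyclin genes by mean TPM. Ccng1, a p53-responsive cyclin, was highest at 120.3 and 117.1 TPM, and Ccni had 90.0 and 91.4 TPM. Of the 25 genes 21 were detected, beside 40.2% of all nuclear protein-coding genes. The 4 others were Ccnd1, with 1 read in replicate 2, and Ccna1, Ccno and Ccnb3, with no read; no order among these can be read from 1 count. Of 18 kinase genes 14 were detected, beside the same 40.2%. Cdk4 was highest, and Cdk6 (34.1 and 34.2 TPM) could not be told apart from Cdk16 (33.6 and 34.7 TPM), a kinase of the PCTAIRE group. Cdk2 was 7th by mean TPM, but its place changed between libraries. At 24.6 and 21.3 TPM it was above Cdk17 (23.4 and 24.6 TPM) and Cdk12 (23.2 and 24.5 TPM) in replicate 1 and below both in replicate 2. Cdk1, the mitotic kinase, was next by mean, at 19.5 and 20.2 TPM, and Cdk14 and Cdk18 had no read.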
